A study of Mus musculus with 6 samples.

Results

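Tcf7, Lef1, Bach2, Myb and Satb1 encode transcription factors of immature or stem-like lymphocytes, and the binding of Eomes around these 5 genes was described in mouse natural killer (NK) cells. The sites were the peaks whose deposited gene symbol was 1 of the 5, out of 23052 symbols in the peak lists. Of the 84399 merged regions in the 3 lists, 91 were assigned to these genes, with 43, 40 and 59 peak intervals in experiments 1, 2 and 3. The study immunoprecipitated Eomes from splenic NK cells to map where it binds. In each of 3 experiments, splenocytes of C57BL/6 wild-type animals, 8 to 12 weeks old, were pooled, and the purified NK cells were expanded for 4 days in 100 ng/mL IL-15, a cytokine that sustains NK cells. Each experiment gave 1 library immunoprecipitated (IP) with an anti-Eomes antibody from Abcam and 1 input library of chromatin that was not immunoprecipitated. All libraries came from wild-type cells in culture, so no IP from cells lacking Eomes was used here, and pooled mice give no spread between animals.

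Eomes is a T-box factor that, with its relative T-bet, directs NK cell development and the effector programme of NK cells and CD8 T cells. Tcf7 encodes TCF1 and Lef1 encodes LEF1, related HMG-box proteins that act with beta-catenin or with Groucho/TLE corepressors and mark early and memory-like lymphocytes. Bach2 is a repressor that pairs with small Maf proteins and restrains effector differentiation, Myb maintains progenitor cells, and Satb1 organises chromatin in developing thymocytes. Peaks show where the factor was recovered on DNA and do not measure the expression of these genes.

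The deposited lists held 37456, 33841 and 46329 intervals in experiments 1, 2 and 3, and the lowest pileup in each was 8, 7 and 9 fragments. A pileup is read here as the number of IP fragments at the peak summit, and the fold is the authors' ratio of IP to background. The lowest background recovered from these values was 1.82, 1.32 and 2.33 fragments. Read depth of the libraries was not used here. A site was called reproducible when at least 2 of the 3 experiments had a peak there. Among marker genes, a reproducible region was assigned to 7 of 7 NK cell genes, 2 of 5 T cell genes, 1 of 5 B cell genes and 2 of 5 myeloid genes, beside 42.8% of protein-coding RefSeq genes. The T cell and myeloid shares are near that background. The part of other cell types in the sites below was not tested.

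All 5 genes had a site found in all 3 experiments, beside 32.2% of the symbols in the lists and 28.3% of protein-coding RefSeq genes. A reproducible site was at all 5, beside 50.9% of the symbols. Of the 91 sites, 32 (35.2%) were reproducible, beside 23.8% of all regions. The sites present in all 3 experiments numbered 17 (18.7%), beside 12.2% of all regions. Another 15 sites had peaks in 2 experiments and 59 in 1 experiment. Of those 59, 18 were seen only in experiment 1, 12 only in experiment 2 and 29 only in experiment 3, the list with the most peaks. Lef1 had 14 reproducible sites of 30, Bach2 8 of 22, Tcf7 4 of 11, Myb 3 of 9 and Satb1 3 of 19. Having at least 4, as Lef1, Bach2 and Tcf7 did, was the case for 3.89% of the symbols. The shares of symbols and genes were not adjusted for gene length or for the number of regions per symbol, which was 9 to 30 for the members. No peak of another symbol overlapped any of the 91 sites.

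**Figure D1:**
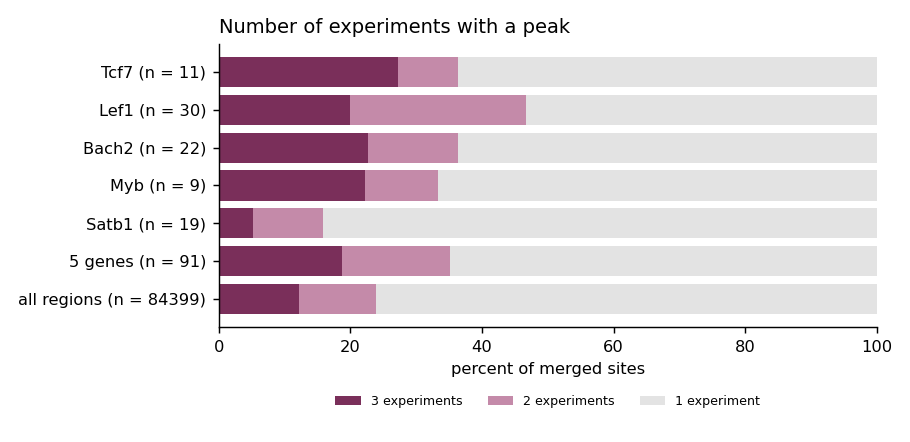
Percent of merged sites (x axis) with a peak in 3, 2 or 1 experiments, for each gene, the 5 genes together and all regions of the lists. The 5 genes had 18.7% of their sites in all 3 experiments, beside 12.2% of all regions, and Satb1 had the largest share seen in 1 experiment among the 5 genes.

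By the deposited annotation, which takes promoters as within 3000 bp of a transcription start, the reproducible sites lay mainly away from promoters. Of the 32 sites, 12 (37.5%) were in promoters, 10 in introns and 10 in intergenic DNA, while 59.1% of all reproducible regions were in promoters. The same held for sites in all 3 experiments, of which 5 were in promoters and 12 outside, while 63.8% of all regions in 3 experiments were in promoters. Of the 25 sites in promoters, 12 were reproducible (48%), beside 38.1% of all promoter regions, and of the 66 sites elsewhere 20 were (30.3%), beside 15.5%. The 12 promoter sites had mean folds of 3.94 to 6.63, with a median of 4.68. The 20 other sites had mean folds of 3.37 to 20.9, with a median of 5.76. Over all reproducible regions, the medians were 4.85 in promoters and 4.84 elsewhere. Over all regions in 3 experiments, they were 5.46 in promoters and 6.16 elsewhere. By this annotation, the strongest sites of Tcf7, Lef1, Bach2 and Myb were intergenic or intronic, and that of Satb1 was in its promoter. RefSeq also has a Lef1 start inside intron 3, with a promoter window at chr3:131156044-131156343. The leading Lef1 site and the intron 3 sites at chr3:131154021-131154227 and chr3:131156400-131156751 lay within 3000 bp of that start. By it, they would count as promoter sites. Whether the members' shares differ from those of other genes was not tested, since the genes were chosen with earlier results of these data known.

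**Figure D2:**
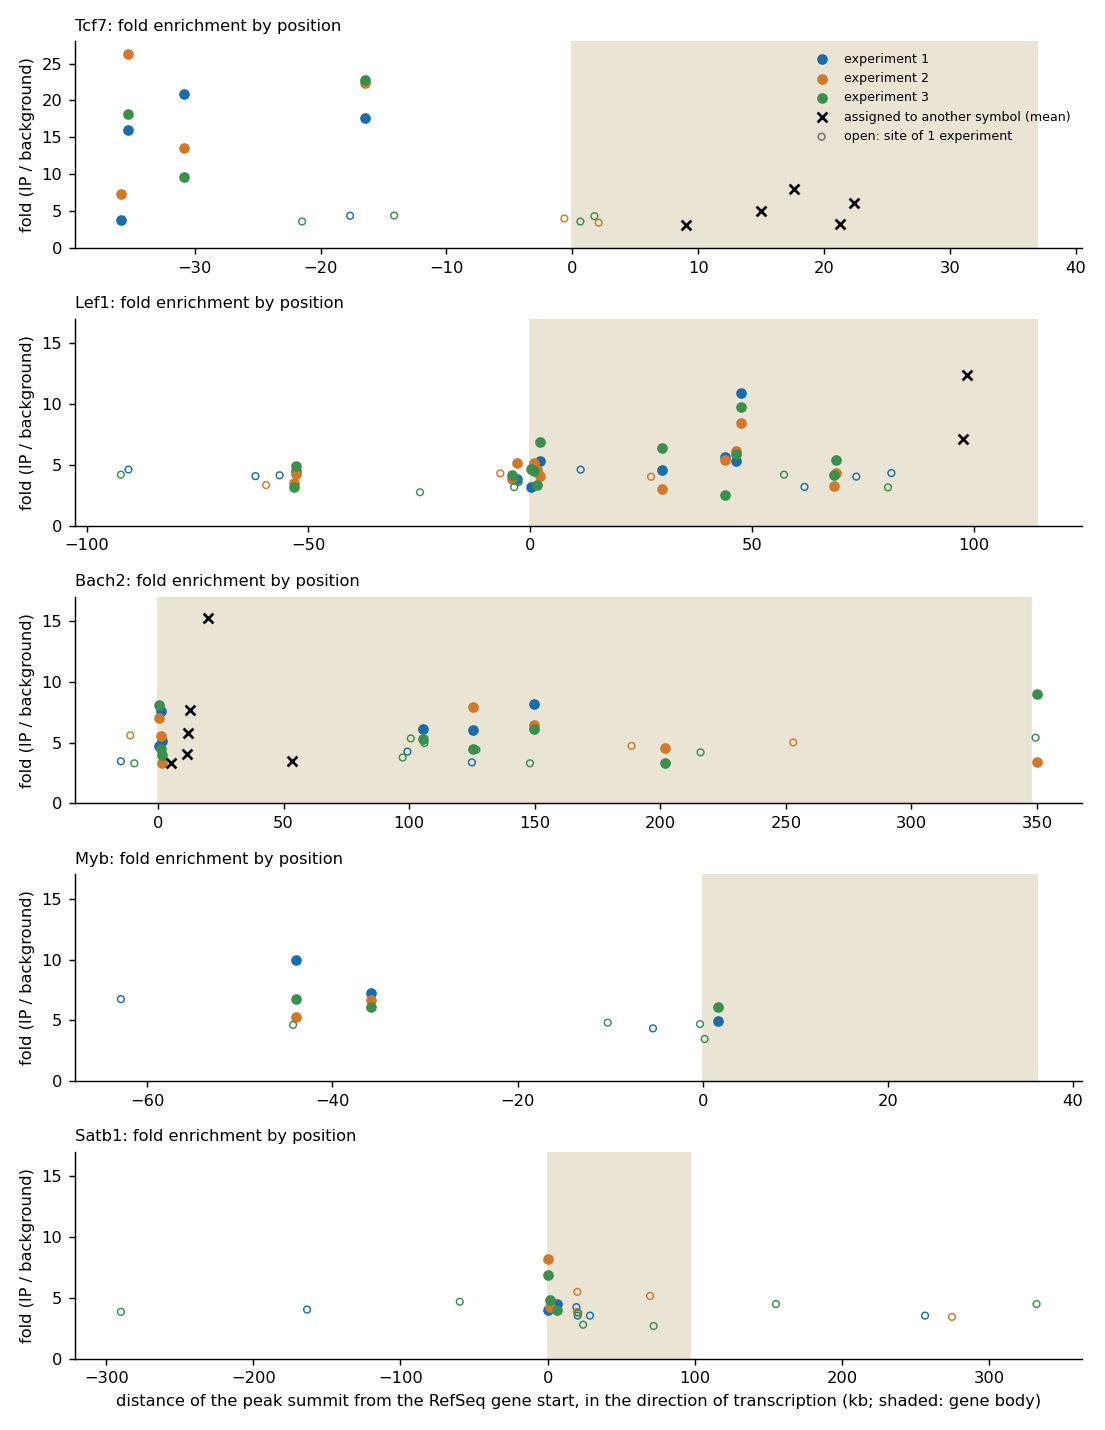
Fold enrichment (y axis, IP over background) at each site against the distance of its summit from the RefSeq gene start (x axis, kb, in the direction of transcription), 1 panel per gene, with the gene body shaded. Filled points are reproducible sites by experiment, open points are sites of 1 experiment, and crosses are reproducible regions in the gene body assigned to another symbol; Tcf7 has its high folds upstream, up to 26.3, and Lef1 and Bach2 have crosses of 12.4 and 15.2 above their own sites.

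Tcf7 carried the highest folds of the 5 genes, in a group of 4 intergenic sites upstream of its start. Tcf7 lies on the minus strand at chr11:52246527-52283383 (mm10), and the 4 reproducible sites spanned 19.8 kb. The site nearest the gene, chr11:52299509-52300222, lay 16.4 kb upstream of the RefSeq start, with a deposited distance of −16495 bp. It had pileups of 60, 51 and 99 IP fragments in experiments 1, 2 and 3, against a recovered background of 2.46, 1.32 and 3.39. Its folds were 17.6, 22.4 and 22.8, a mean of 20.9 ± 2.87 (SD, n = 3). Every experiment placed it high, at a mean percentile of 99.8 within the lists, and it ranked 35 among the 10328 regions found in all 3 experiments and 11 among the 1662 of them in intergenic DNA.

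The other Tcf7 sites in all 3 experiments lay further upstream. The site at chr11:52318383-52318888, at −35398 bp, had pileups of 62, 60 and 90, against a background of 2.95, 1.32 and 4.00. Its folds were 15.9, 26.3 and 18.2, a mean of 20.1 ± 5.43 (SD, n = 3), and it ranked 67 of 10328. The highest fold came from experiment 2, where the pileup was the lowest of the 3 and the background was at the lowest value of that list. The site at chr11:52313940-52314684, at −30995 bp, had pileups of 71, 45 and 76 and folds of 20.8, 13.6 and 9.63, a mean of 14.7 ± 5.67 (SD, n = 3). Its lowest fold came from experiment 3, which had the highest pileup but also a background of 7.0 fragments, against 2.46 and 2.38 in the other experiments. The summits of the 3 experiments fell within 25, 22 and 16 bp of each other at these sites, in the order given here. The last site, chr11:52319000-52319350, lay 111 bp beyond the site at −35398 bp and had peaks in experiments 1 and 2, with pileups of 13 and 17 and folds of 3.76 and 7.26.

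The promoter of Tcf7 had no reproducible site. It had 4 sites of 1 experiment each, of which 2 were in experiment 2, with pileups of 7 and 11, and 2 in experiment 3, with pileups of 14 and 11. Their folds ran from 3.45 to 4.33. The 3 remaining intergenic sites of Tcf7 were also seen in 1 experiment, with pileups of 11 to 15. The gene body held 18 regions assigned to the noncoding symbols Gm26551 and A630014C17Rik, of which 5 were reproducible. The strongest, chr11:52265583-52266504, had folds of 6.83, 9.27 and 8.02, a mean of 8.04 ± 1.22 (SD, n = 3), below the 3 strong upstream sites in every experiment.

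**Figure D3:**
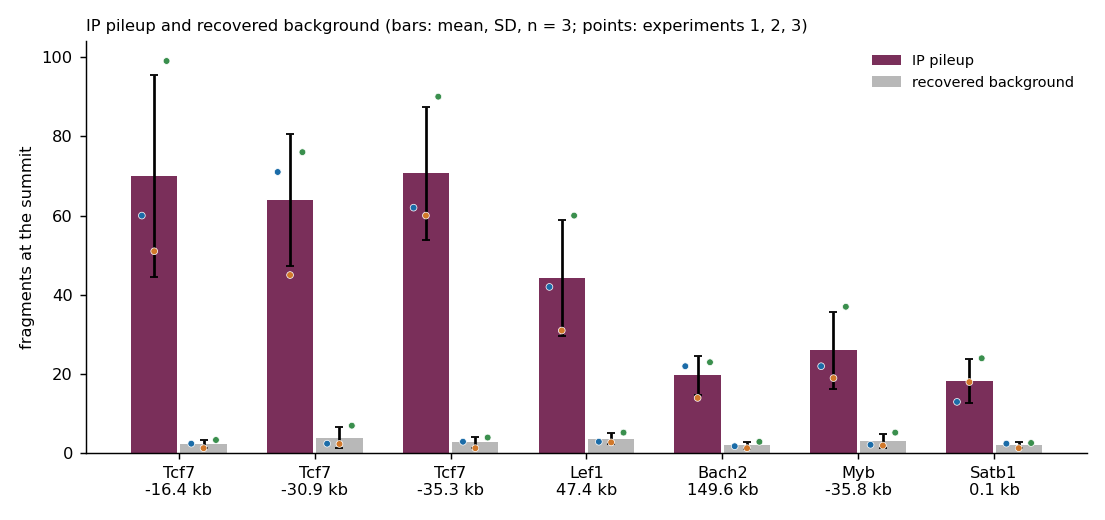
IP pileup (left bar of each pair) and recovered background (right bar), in fragments at the summit, for the 3 strong Tcf7 sites and the leading site of each other gene, labelled with the distance from the RefSeq start. Bars are means with SD (n = 3) and points are experiments 1, 2 and 3. Pileups ran from 45 to 99 fragments at the Tcf7 sites and from 13 to 24 at the Satb1 site. All sites shown are called peaks, so a pileup above background is given by the selection.

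Lef1, which encodes the TCF1 relative LEF1, had the most reproducible sites of the 5 genes. Its 14 sites comprised 5 in promoters, 6 in introns and 3 in intergenic DNA. As many or more were assigned to 21 symbols (0.0911%), Lef1 included. Of the 14, 6 were in all 3 experiments and 8 in 2, and counts were not adjusted for gene length. Lef1 lies on the plus strand at chr3:131110297-131224357, and its leading site was chr3:131157319-131157842 in intron 3 of 11, 47.4 kb inside the gene. This site had pileups of 42, 31 and 60 IP fragments, against a background of 2.95, 2.78 and 5.25. Its folds were 10.9, 8.46 and 9.76, a mean of 9.70 ± 1.21 (SD, n = 3), and it ranked 941 of the 10328 regions in all 3 experiments.

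The other intron 3 sites were weaker. The nearest, chr3:131156400-131156751, was 567 bp away and had pileups of 20, 14 and 36 and folds of 5.32, 6.11 and 5.92, which lay close together (SD 0.417, n = 3). The site at chr3:131154021-131154227 had folds of 5.63, 5.41 and 2.56, where experiment 3 combined a pileup of 24 with a background of 8.75. The site at chr3:131139779-131140094 had pileups of 15, 7 and 25 and folds of 4.63, 3.00 and 6.37, so that experiment 2 held it at the lowest pileup of its list. Sites at chr3:131178615-131178933 and chr3:131179002-131179301 had peaks in experiments 2 and 3 only, with pileups of 9 to 17 and folds of 3.25 to 5.41.

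The sites of Lef1 that the deposited annotation places in promoters were low and clustered. The only one in all 3 experiments was chr3:131112247-131112725, with pileups of 14, 9 and 24 IP fragments, against a background of 1.82, 1.42 and 2.62, and folds of 5.33, 4.13 and 6.90 (mean 5.45 ± 1.39, SD, n = 3). It lay 2.15 kb inside the RefSeq gene and −72 bp from an inner transcript start. The site at the RefSeq start itself, chr3:131110231-131110490, had peaks in experiments 1 and 3, with folds of 3.20 and 4.69. The other 3 promoter sites had peaks in 2 experiments, with pileups of 10 to 17. One of them, chr3:131111570-131112244, stopped 2 bp short of the site in all 3 experiments. Upstream, the site at chr3:131057393-131057600, −52887 bp from the start, was in all 3 experiments, with pileups of 19, 20 and 22 and folds of 4.50, 4.22 and 4.90. Its neighbour at −53314 bp and a site at −4224 bp had peaks in experiments 2 and 3, with folds of 3.19 to 4.14.

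The promoter window of an inner Lef1 start is shown because it overlaps the promoter site found in all 3 experiments. It is RefSeq sequence of GRCm38.p6, the assembly behind mm10, running from 250 bases before to 50 bases after the start. It is printed 5′ to 3′ on the plus strand, with capitals for GGTGTG or its reverse complement CACACC, the letters at the core of the T-box motif.
Lef1 chr3:131112541-131112840: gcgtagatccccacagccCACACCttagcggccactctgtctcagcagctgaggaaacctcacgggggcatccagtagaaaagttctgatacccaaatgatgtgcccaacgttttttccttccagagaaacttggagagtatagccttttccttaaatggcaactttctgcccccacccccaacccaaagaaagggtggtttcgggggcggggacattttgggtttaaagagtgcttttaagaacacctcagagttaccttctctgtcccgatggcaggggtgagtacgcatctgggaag
The single match, at chr3:131112559-131112564, lay 29.5 to 169.5 bp from the summits of the 3 experiments.

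A region with a higher fold than the leading site lay inside Lef1 but was assigned to the neighbouring gene Hadh, which encodes a mitochondrial dehydrogenase. It was chr3:131208367-131209371, in intron 11 of 11 of a Lef1 transcript. It had pileups of 42, 35 and 60 and folds of 9.68, 13.9 and 13.6, a mean of 12.4 ± 2.35 (SD, n = 3). Its fold exceeded that of the intron 3 site in experiments 2 and 3 and was below it in experiment 1. Of 5 regions assigned to Hadh over Lef1 or within 10 kb of it, 3 were reproducible.

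Bach2 had 8 reproducible sites over a gene of 348 kb on the plus strand, chr4:32238413-32586109. They comprised 3 promoter sites, 4 intron sites and 1 site beyond the gene end, and 5 were in all 3 experiments. All 3 promoter sites were in all 3 experiments. The one over the RefSeq start, chr4:32238226-32238785, had pileups of 13, 16 and 27 and folds of 4.76, 7.05 and 8.08, a mean of 6.63 ± 1.70 (SD, n = 3), the highest mean fold of the 12 promoter sites. The second, chr4:32239129-32239680, had folds of 7.62, 5.58 and 4.45, the opposite order of experiments. The third, chr4:32239839-32240289, had folds of 5.10, 3.35 and 4.00.

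The leading Bach2 site, chr4:32387891-32388132, lay in intron 2 of 6, 149.6 kb from the start. It had pileups of 22, 14 and 23 and folds of 8.17, 6.46 and 6.11, a mean of 6.91 ± 1.10 (SD, n = 3). Another site of this intron, chr4:32363748-32364071, had pileups of 26, 21 and 22 and folds of 6.08, 7.90 and 4.46, and its summits fell within 5 bp of each other. The means of these intron sites and of the promoter site over the start lay within 1 SD of each other. The remaining site in intron 2, chr4:32343582-32344168, had peaks in experiments 1 and 3 with folds of 6.13 and 5.33. Sites in intron 3, chr4:32440059-32440380, and beyond the gene end, chr4:32588112-32588565, had peaks in experiments 2 and 3, with folds of 4.57 and 3.36 and of 3.44 and 9.01.

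The strongest binding inside Bach2 carried another symbol. The region chr4:32257834-32258513 lay in intron 1 of 6 of a Bach2 transcript, 19.9 kb from the start, and was assigned to Bach2it1, a transcript within the gene. It had pileups of 53, 32 and 72 IP fragments, against a background of 1.93, 1.99 and 3.50, and folds of 18.4, 11.1 and 16.2, a mean of 15.2 ± 3.78 (SD, n = 3). These folds were above those of every site assigned to Bach2 in the same experiment. In all, 12 regions of other symbols lay in the gene body, of which 6 were reproducible and 4 were in all 3 experiments. With them, the gene body of Bach2 and 10 kb on either side held 14 reproducible regions.

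Myb had 3 reproducible sites, of which the pair found in all 3 experiments lay upstream of the gene in intergenic DNA. Myb lies on the minus strand at chr10:21124930-21160984. The site at chr10:21196669-21196918, at −35694 bp, had pileups of 22, 19 and 37 IP fragments, against a background of 2.18, 1.99 and 5.25, and folds of 7.24, 6.70 and 6.08, a mean of 6.67 ± 0.581 (SD, n = 3). The site at chr10:21204724-21205008, at −43740 bp, had pileups of 27, 21 and 34 and folds of 9.94, 5.27 and 6.79, a mean of 7.33 ± 2.39 (SD, n = 3). The first site led by mean percentile and the second by mean fold, and their values overlapped between experiments. The promoter site chr10:21158846-21160017 had peaks in experiments 1 and 3, with pileups of 13 and 21 and folds of 4.97 and 6.07.

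Over the Myb start, peaks were seen in experiment 3 only, at 2 sites with pileups of 11 and 16 and folds of 3.46 and 4.69. The window of this start is shown because it was the only one of the 13 windows of the 5 genes to hold GGTGTGA, the T-box core searched first. It is printed on the minus strand of GRCm38.p6, with GGTGTG in capitals, and the match begins at its first base.
Myb chr10:21160935-21161234: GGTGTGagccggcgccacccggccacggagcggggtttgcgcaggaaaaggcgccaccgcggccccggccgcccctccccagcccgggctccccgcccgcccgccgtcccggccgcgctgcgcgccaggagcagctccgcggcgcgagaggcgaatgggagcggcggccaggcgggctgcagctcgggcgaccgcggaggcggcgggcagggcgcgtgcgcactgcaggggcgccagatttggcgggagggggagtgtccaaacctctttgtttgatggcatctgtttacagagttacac
The window had 75% G and C. No reproducible region overlapped it.

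The 3 reproducible sites of Satb1 were all in promoters, beside 59.1% of all reproducible regions, and 1 of them was in all 3 experiments. Satb1 lies on the minus strand at chr17:51736187-51833290. The site over the RefSeq start, chr17:51832900-51833390, had pileups of 13, 18 and 24 IP fragments, against a background of 2.46, 1.32 and 2.62. Its folds were 4.05, 8.18 and 6.90, a mean of 6.38 ± 2.12 (SD, n = 3). The summits of the 3 experiments spanned 206 bp, the widest of the 17 sites in all 3 experiments, whose median span was 24 bp, beside 60 bp over all regions in 3 lists. The site at chr17:51831438-51832092 had peaks in experiments 2 and 3 with folds of 4.25 and 4.80. The site at chr17:51826574-51826781, over an inner start, had peaks in experiments 1 and 3 with pileups of 13 and 14 and folds of 4.52 and 3.98.

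Another 6 promoter sites of Satb1 lay 19.6 to 24.1 kb inside the gene, and each was seen in 1 experiment, with pileups of 8 to 15. The remaining Satb1 sites of 1 experiment included 3 upstream and 4 beyond the gene end, the farthest 332 kb from the RefSeq start. No region over Satb1 or within 10 kb of it was assigned to another symbol. The windows of the main and an inner start are shown because reproducible sites overlap both. They are printed 5′ to 3′ on the minus strand of GRCm38.p6, with GGTGTG or CACACC in capitals.
Satb1 chr17:51833241-51833540: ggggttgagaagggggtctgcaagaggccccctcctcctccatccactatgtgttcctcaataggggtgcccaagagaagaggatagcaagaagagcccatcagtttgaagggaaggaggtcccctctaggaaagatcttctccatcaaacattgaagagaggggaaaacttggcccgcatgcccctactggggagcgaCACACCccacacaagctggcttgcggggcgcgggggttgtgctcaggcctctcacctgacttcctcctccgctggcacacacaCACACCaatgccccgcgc
Satb1 chr17:51826539-51826838: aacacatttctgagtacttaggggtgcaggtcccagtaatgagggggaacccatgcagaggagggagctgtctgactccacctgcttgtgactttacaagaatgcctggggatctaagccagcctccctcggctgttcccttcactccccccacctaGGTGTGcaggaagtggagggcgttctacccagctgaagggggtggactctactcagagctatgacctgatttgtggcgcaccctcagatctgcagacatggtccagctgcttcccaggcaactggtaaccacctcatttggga
The match in the inner window, at chr17:51826676-51826681, lay 15.5 and 24.5 bp from the 2 summits there. The main window held 2 matches. The one at chr17:51833253-51833258 lay 61.5, 212.5 and 6.5 bp from the summits of experiments 1, 2 and 3, and the one at chr17:51833336-51833341 lay 144.5, 295.5 and 89.5 bp from them.

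The promoter table held 13 windows for the 5 genes, of 300 bases each, and 5 of them overlapped a reproducible region, beside 24.2% of the 32851 windows in the table. The 13 are not all separate. Lef1 windows chr3:131110047-131110346 and chr3:131110073-131110372 share most bases and overlap the same reproducible site. Satb1 windows chr17:51812005-51812304 and chr17:51812135-51812434 also overlap each other. The only Bach2 window was at an inner start, chr4:32417185-32417484, where no site lay, so these counts leave out the Bach2 start at chr4:32238413 and its 3 promoter sites. Letters were searched on both strands. GGTGTGA was in 1 of the 13 windows and in 3.98% of all windows. The shorter GGTGTG, chosen after the windows were seen, was in 6 of 13, and in 19.0% of all windows and 17.5% of those overlapped by a reproducible region. TGTGGT, a core of RUNX motifs, was in 0 of 13 windows and 16.8% of all. CTTTGA, a core of TCF/LEF motifs, was in 2 of 13 and 16% of all. GGAA, the ETS core, was in 13 of 13 and 96.0% of all. GGTGTG is contained in GGTGTGA, and a match describes the letters of a window and is not a measured binding site.

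By the leading site of each gene, placed by its percentile of fold within each list, the order was Tcf7 at 99.8, Lef1 at 96.1, Bach2 at 89.4, Myb at 89.1 and Satb1 at 77.1. Tcf7 was above Lef1 in 3 of 3 experiments, by 3.68 ± 2.24 percentile points (SD), and Lef1 was above Bach2 in 3 of 3, by 6.70 ± 3.88. Bach2 was above Myb in 2 of 3 experiments, by 0.324 ± 1.41, and Myb was above Satb1 in 1 of 3, by 12.0 ± 29.4. The last pairs did not differ beyond their spread. Leading sites and the order of genes were both picked by these same percentiles, so a test on them cannot decide the order. Two-sided exact sign-flip permutation tests gave p = 0.25, 0.25, 0.75 and 1 for the 4 pairs in this order, or 0.5, 0.5, 1 and 1 after Benjamini-Hochberg adjustment. With 3 experiments, 0.25 is the smallest p the test can give. This order covers only sites that carry the symbol of the gene. The region inside Bach2 assigned to Bach2it1 had a mean percentile of 98.9, and the region inside Lef1 assigned to Hadh had 98.3. Both were above the leading sites of these genes, and counting them would place Bach2 above Lef1 by mean percentile. In fold, the Bach2it1 region was the higher in experiments 1 and 3, and the Hadh region in experiment 2, at 13.9 against 11.1.

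**Figure D4:**
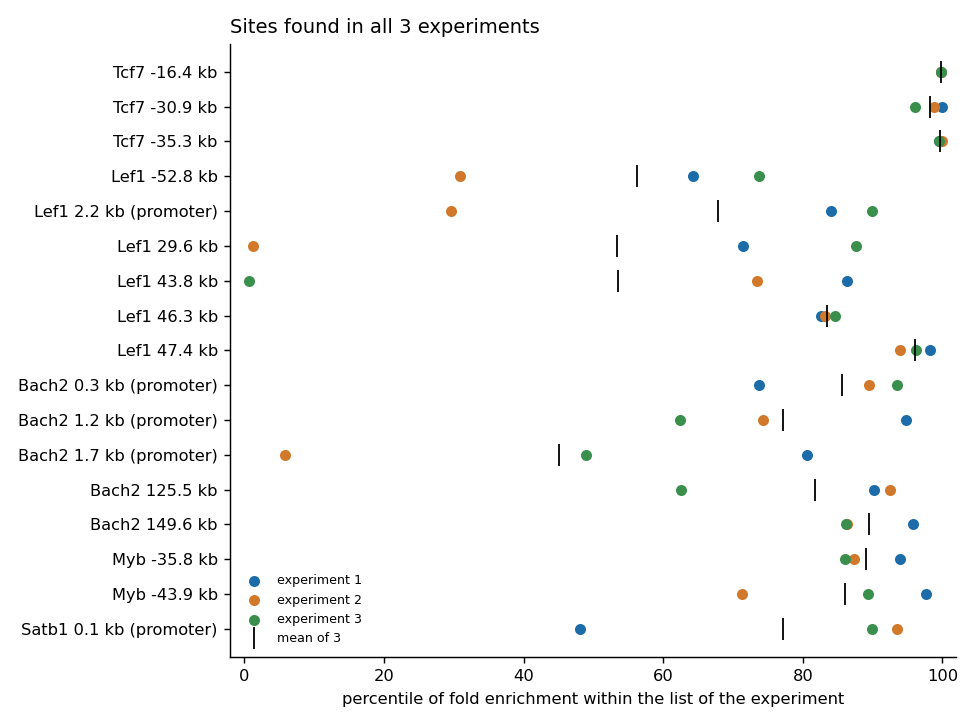
Percentile of fold enrichment within each list (x axis) for the 17 sites found in all 3 experiments (rows, named by distance from the RefSeq gene start), by experiment, with the mean as a bar. The Tcf7 sites sit at mean percentiles of 98.3 to 99.8 in a narrow spread of percentiles, while several Lef1 and Bach2 sites and the Satb1 site range widely between experiments. In fold, the Tcf7 sites at −30995 and −35398 bp had the largest SDs of the 17 sites, 5.67 and 5.43.

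Reproducible regions were also counted for related genes, by their deposited symbol. All 6 paralogues of the members had one, beside 42.8% of protein-coding RefSeq genes. The paralogues with the highest percentiles were Tcf7l2, a TCF family member with a mean fold of 6.66 ± 0.149, Mybl1, a Myb relative, with 6.77 ± 1.38, and Bach1, the Bach2 relative, with 6.42 ± 1.75 (SD, n = 3 each). Among 12 partner proteins, 9 had a reproducible region, and the peaks of Tle2, Hdac1 and Hdac3 were not reproducible. The highest were the corepressor gene Tle4, with a mean fold of 15.9 ± 3.18, and the small Maf genes Mafk, with 16.8 ± 8.95, and Maff, with 12.1 ± 3.25 (SD, n = 3 each). The Tle4 region was intergenic, at a deposited distance of 245089 bp, and those of Mafk and Maff were in promoters. The top sites of Tle4, Mafk and Maff were below the mean fold of 20.9 at the leading Tcf7 site. At Mafk the fold was 7.94 in experiment 1 and 25.8 and 16.7 in experiments 2 and 3, so its order against Tcf7 differs between experiments.

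Of 18 genes of the immature lymphocyte programme, 16 had a reproducible region, beside 42.8% of protein-coding RefSeq genes, and Il7r and Slamf6 had no peak assigned to them. The highest were Cxcr5, a chemokine receptor gene, with a mean fold of 16.4 ± 1.49, Gata3, a T cell and innate lymphoid factor, with 12.3 ± 3.20, and Kit, the stem cell factor receptor gene, with 10.6 ± 3.30 (SD, n = 3 each). The Gata3 and Kit regions were intergenic, at deposited distances of 71763 and 16485 bp. The Cxcr5 region was annotated to an intron but lay upstream of the Cxcr5 start, at −11212 bp. The lists were chosen with earlier results known, so their counts describe these genes and are not a test.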

How the data were processed

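Eomes ChIP-seq peaks were analysed from 3 deposited lists, 1 per experiment, each of 1 IP library set against its own input, per the labels. The submitters' processing notes name mm10, Novoalign and ChIPseeker; versions, settings, the peak caller and library depth: not given in the sources used here. The authors deposited a pileup per peak, read as coverage signal at the summit, a fold enrichment ratio, −log10 p-value and −log10 q-value, and a gene annotation. Scores are the authors' own and serve to describe and rank peaks within a list. The lowest pileup of a list is the smallest value called there, and the level needed for a call at a given background was not tested.

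Where an interval held several sub-peaks, the one with the highest −log10 q-value stood for it. Intervals sharing at least 1 bp were merged across experiments (checked against bedtools 2.31.1 and tested on simulated data), and regions in at least 2 experiments were called reproducible. Background was recovered as (pileup + 1) / fold − 1. A percentile is the rank of a fold within its list. The leading site of a gene was found in the most experiments and, among those, had the highest mean percentile. RefSeq tables of GRCm38.p6 gave gene positions and promoter windows; all 5 genes matched, with no window for the main Bach2 start. Coordinates are those of the lists, on mm10. Python 3.11.15, pandas 2.3.3, numpy 2.4.6 and matplotlib 3.10.9 were used.

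The 5 genes and all lists were chosen with earlier results of these data known. Every reproducible site of the members is described; from each list, the 3 genes with the highest mean percentile are given values and those with no reproducible region are named. Genes most alike had the smallest distance on 6 numbers, log2(1 + intervals) and log2(highest fold) in each list. Sites assigned to a nearer start of another symbol are counted apart. Alternatives were an overlap of 50% of the shorter interval, a −log10 q-value of at least 3, all 3 experiments, the sub-peak with the highest pileup, the gene body with 10 kb on either side, and leaving out each experiment.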

Additional observations from a re-analysis of the deposited data

How the results depend on the processing

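Requiring all 3 experiments left 17 reproducible sites (18.7% of the sites), with 6 at Lef1, 5 at Bach2 and 1 at Satb1. A −log10 q-value of at least 3 left 8 at Lef1. Taking regions over the gene body and 10 kb on either side, whatever their symbol, gave 14 reproducible regions at Bach2 and 1 at Myb. The mean fold at the leading site was then 8.04 for Tcf7, 12.4 for Lef1, 15.2 for Bach2 and 5.52 for Myb, since by construction this leaves out the upstream sites and takes in regions of other symbols. Leaving out each experiment in turn gave 19 to 26 reproducible sites in all, 7 to 12 at Lef1, 5 to 7 at Bach2, 3 to 4 at Tcf7, 2 to 3 at Myb and 1 to 2 at Satb1. The lowest total, 19, came without experiment 3; Lef1 had 7 without experiment 2 and 7 without experiment 3, and Bach2 5 and Satb1 1 without experiment 3, with fewer lists to match. Mean folds at the leading sites then ran from 20.0 to 22.6 for Tcf7, 9.11 to 10.3 for Lef1, 6.99 to 7.57 for Bach2, 6.39 to 8.36 for Myb and 5.47 to 7.54 for Satb1. The leading site of Bach2 moved to the promoter over its start without experiment 1 and to the other intron 2 site without experiment 3, and that of Myb moved to the site at −43740 bp without experiment 2. The overlap rule and the choice of sub-peak moved no value beyond its spread or a count by over 1.5 times. The search for GGTGTG, chosen after seeing the data, gave 6 windows, against 1 with GGTGTGA. No paired analysis was possible because, between IP and input, only the background within the authors' fold can be recovered, and the input libraries have no values of their own here to fit with a replicate block. The comparisons of neighbouring genes in the report do pair values by experiment. Unknown depth limits what a missing peak shows: a site absent from a list may still be bound in that experiment.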

Other observations

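Among the symbols with an interval in all 3 lists, 10940 in number, those whose peak numbers and highest folds were nearest to Tcf7 were Ctsd, a lysosomal protease gene, Trac, the T cell receptor alpha constant gene, and Tmprss6. A highest fold is taken over all intervals of a symbol, so it can come from different sites in different experiments. Highest folds in experiments 1, 2 and 3 were 20.8, 26.3 and 22.8 for Tcf7 and 16.2, 26.3 and 26.9 for Trac. Those of Tcf7 came from the sites at −30995, −35398 and −16495 bp, in that order. Nearest to Lef1 was Egr3, a zinc-finger factor, with 16, 14 and 16 intervals, against 15, 16 and 19 for Lef1, and highest folds of 10.5, 9.48 and 9.95, against 10.9, 8.46 and 9.76 for Lef1. Sema4d and Tpst2 followed. Nearest to Bach2 were Ralgds, Ezr and Man1c1, nearest to Myb were Gm26698, Retreg1 and Nsun2, and nearest to Satb1 were Myo7a, Baiap2 and Gm15598.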
